A study of Homo sapiens with 17 samples.

Results

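The 3 libraries labelled with a GOLGA8N plasmid (GOLGA8N 1, GOLGA8N 2 and 23-GOLGA8N) were set against the 14 libraries with any other plasmid label, of 17 libraries in all, and were chosen by the label alone. Every library came from K562, a human chronic myeloid leukaemia line with erythroid features, which the labels call lymphoblasts. All cells received CRISPR plasmids by electroporation, then an antisense oligonucleotide (ASO), and were taken for RNA on day 6. Both sides of the comparison thus received an ASO, but the labels do not say whether it was the same one. The series describes the plasmids as designed to activate the gene that each label names. The other labels were Neg, GFP, RFP, E7, TTR, TRPC5OS, ADORA2A, UBE2V1, COL6A6, 20-ARSF, 21-CTPS2, 22-LAPTM4B and the pair LAPTM4B 1 and LAPTM4B 2. The labels do not say what Neg, E7, the numbers 1 and 2 or the number in front of 4 labels mean. They also name neither guides, Cas protein nor ASO. Nothing says that the libraries came from separate cultures, so every p-value reflects library-to-library spread alone, and that spread may be technical. A label with a number and hyphen in front is called prefixed here: 23-GOLGA8N and 3 others were prefixed, and GOLGA8N 1, GOLGA8N 2 and 11 others were not.

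Golgins are long coiled-coil proteins on the membranes of the Golgi apparatus, where they tether incoming vesicles and help to keep the cisternae in order. The GOLGA8 genes are primate golgin copies that lie in segmental duplications of chromosome 15 and resemble each other closely. In CRISPR activation, a Cas protein without cutting activity is led by a guide RNA to the promoter of a gene and carries a transcriptional activator there. An ASO is a short synthetic nucleic acid that enters cells largely by endocytosis, passes through endosomes and acts on the RNA it pairs with.

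Because guides are placed near a start site, the promoter of GOLGA8N is shown first, beside that of GOLGA8H, the copy whose RefSeq span holds the feature with the lowest p of the comparison. Both are the 250 bases before and 50 bases after the RefSeq start, on GRCh38.p14, plus strand. They lie at chr15:32593206-32593505 for GOLGA8N and chr15:30603778-30604077 for GOLGA8H. Capitals in the GOLGA8H line mark its 9 bases that differ from GOLGA8N or have no partner there in a global alignment.
GOLGA8N: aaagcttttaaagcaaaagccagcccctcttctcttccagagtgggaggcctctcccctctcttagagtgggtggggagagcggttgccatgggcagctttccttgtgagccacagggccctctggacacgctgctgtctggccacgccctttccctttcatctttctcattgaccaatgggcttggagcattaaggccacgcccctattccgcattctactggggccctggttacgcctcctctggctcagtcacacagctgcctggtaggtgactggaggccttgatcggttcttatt
GOLGA8H: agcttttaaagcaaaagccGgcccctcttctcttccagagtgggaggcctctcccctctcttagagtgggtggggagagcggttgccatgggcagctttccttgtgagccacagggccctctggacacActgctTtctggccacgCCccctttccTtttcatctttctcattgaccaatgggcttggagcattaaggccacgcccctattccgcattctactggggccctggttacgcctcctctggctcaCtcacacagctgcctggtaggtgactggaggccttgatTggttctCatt
These windows were 96.4% identical over the alignment. The GOLGA8N window held 59 candidate protospacers, meaning 20 bases next to NGG on either strand. Of these, 58 were present without a mismatch, and next to NGG, in the window of at least 1 of the 12 other copies in the RefSeq promoter table, and 1 was in none. GOLGA8O held 58 of them, GOLGA8R 52, GOLGA8K 48 and GOLGA8H 47. GOLGA8G held 6 and GOLGA8B held 0, so the windows ranged from nearly all to none. Each window follows that copy's own RefSeq start, and those of GOLGA8Q and GOLGA8B were only 61.0% and 49.9% identical to that of GOLGA8N. A low count thus need not mean that the corresponding sequences of the copies differ. GOLGA8A had no window in this set. These counts describe the sequence only, since the labels do not give the guides used.

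Read totals of the GOLGA8N libraries were 2740766, 2710290 and 2252097 estimated reads for GOLGA8N 1, GOLGA8N 2 and 23-GOLGA8N, within the range of the others (569057 in GFP to 4236396 in 20-ARSF). Levels are given as CPM, counts scaled to the library's reads in genes, and 3 reads, the limit that a count of 0 allows for counting error only, came to 1.13, 1.15 and 1.38 CPM in the same order. Across 7310 genes, Spearman correlations were 0.848 to 0.877 within the GOLGA8N libraries and 0.838 to 0.898 between them and the others without GFP. GFP stood apart from every library, at 0.753 to 0.783. All 12 K562 markers were detected (at least 3 reads over the 17 libraries), summing to 6520 to 9890 CPM in the GOLGA8N libraries and 5460 to 10000 CPM in the others. Of 9 T cell markers 5 were detected, summing to 63.1 to 123 CPM in the GOLGA8N libraries and 39.1 to 106 CPM in the others, while CD3E, CD8A and CD2 were at 0. Of 9 B lymphoblast markers 4 were detected, at 4.6 to 11.3 CPM and 0 to 14.5 CPM, with MS4A1, CD79B, IGHM and HLA-DRA at 0. All 9 monocyte markers were detected at 27.6 to 51.8 CPM and 21.8 to 56 CPM, and all 9 epithelial markers at 1450 to 1810 CPM and 850 to 2020 CPM. For fibroblasts 3 of 9 markers were detected (20.7 to 47.7 CPM and 29.5 to 64.3 CPM), and for endothelium 4 of 8 (2.9 to 11.3 CPM and 0 to 15.2 CPM). Each summed range overlapped between the groups, and the part of these genes in the results was not tested. Mitochondrial transcripts took 16% ± 0.885 (SD, n = 3) of reads with a GOLGA8N label and 15.3% ± 1.27 (SD, n = 14) without one, with an exact two-sided permutation p of 0.269 within prefix classes. Cytosolic ribosomal protein genes took 24.3% ± 0.966 (SD, n = 3) and 23.9% ± 0.893 (SD, n = 14), with an exact permutation p of 0.577. The smallest p that these 312 arrangements allow is 0.00321.

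The first question was whether the named gene and its relatives were higher. GOLGA8N itself (ENSG00000232653, chromosome 15) received 0.7 estimated reads over its 3 libraries and 1.3 over the 14 others, which is below what a count of 0 allows, so its level could not be compared. Of 20 GOLGA8 family genes, 3 passed the filter on low counts and none was called. GOLGA8A was at 33.6, 46.7 and 43.4 CPM in the order GOLGA8N 1, GOLGA8N 2, 23-GOLGA8N, which is kept from here on, and at 18.1 to 59.7 CPM (median 32.9) in the others. GOLGA8B was at 35.4, 20.9 and 20.5 CPM, against 16.2 to 58.0 CPM (median 28.8). Both groups overlapped for each gene, with log2 differences of 0.25 ± 0.268 (SE) and -0.23 ± 0.304 (SE). The sum of the genes with a GOLGA8 name did not separate the libraries either: it was 74.4 ± 6.84 CPM (SD, n = 3) and 69.6 ± 21.8 CPM (SD, n = 14), with an exact two-sided permutation p of 0.734. GOLGA8A and GOLGA8B, its main members, averaged 41.2 and 25.6 CPM where GOLGA8N was the label. AC091057.3, described below, aligned to GOLGA8N at 97.6% identity but was not part of the sum. Its mean was 47.9 CPM with a GOLGA8N label and 0.558 CPM without one. The sum therefore does not speak for every feature that resembles GOLGA8N. GOLGA8IP, a pseudogene of the family named here after its values were seen, was at 10.4, 0.573 and 2.92 CPM in the 3 libraries and at 0 in 13 of the 14 others, with 0.416 CPM in Neg. It did not pass the filter, and only the fit without a filter called it (log2 6.28, edgeR adjusted p = 0.0206). Within 1 Mb of GOLGA8N, 2 of 41 annotated genes passed the filter, CHRNA7 and ARHGAP11A, and neither was called.

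Across all genes, few were called. With the prefix as a term, edgeR tested 13133 genes and called 4 at an adjusted p under 0.05, which is 0.0305% of them. Of these, 3 were higher in the GOLGA8N libraries (0.0228%) and 1 was lower (0.00761%). At an unadjusted p under 0.05 there were 483 genes (3.68%), 151 higher and 332 lower. A description by rank asks that the unprefixed GOLGA8N libraries lie above all 11 unprefixed others, and 23-GOLGA8N above all 3 prefixed others. That held for 28 genes (0.213%), and the mirror image, below all others in both classes, for 39 genes (0.297%). Neither share was larger than that of 1 arrangement among the 312 of the label within prefix classes, which is 0.00321. Such a rank alone therefore does not set a gene apart.

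**Figure D1:**
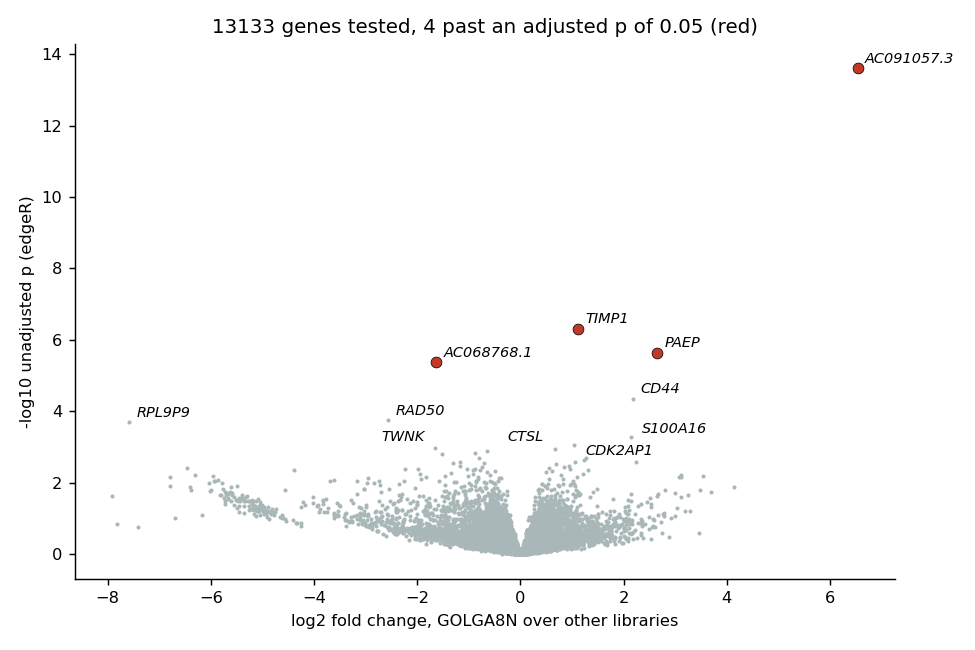
Log2 fold change of each of 13133 genes, GOLGA8N over other libraries, on the horizontal axis and -log10 of the unadjusted edgeR p on the vertical axis. The 4 genes past an adjusted p of 0.05 are red, and AC091057.3 lies far from every other gene; RPL9P9 had 0 reads in the GOLGA8N libraries, so its position depends on the prior count of the fit.

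The feature with the clearest difference was AC091057.3 (ENSG00000269930), annotated as a long intergenic noncoding RNA on chromosome 15, GRCh38, 30616958 to 30617749, plus strand. Its level was 76.3 CPM in GOLGA8N 1, 50.1 in GOLGA8N 2 and 17.1 in 23-GOLGA8N, while the other 14 libraries ran from 0 to 2.01 CPM (median 0.38). The 3 libraries were thus above every other one, on 370.5 reads against 22.3, and 23-GOLGA8N was the lowest of the 3. The log2 fold change was 6.54 ± 0.540 (SE; edgeR adjusted p = 3.29e-10). The call held in each of the 17 fits that left out 1 library, with log2 fold changes of 6.05 to 7.10.

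AC091057.3 lies outside GOLGA8H in GENCODE, where that gene ends at 30614561, but inside it in RefSeq, where GOLGA8H runs from 30604028 to 30617752. In the RefSeq model it therefore falls at the 3′ end of a GOLGA8 gene, the part of a transcript that 3′ tag libraries read. Its 792-base transcript aligned to GOLGA8N at 97.6% identity with 10 mismatches, leaving 151 bases of the GOLGA8N transcript beyond the match. Among GENCODE transcripts, the next best matches were GOLGA8CP and GOLGA8EP at 90.5%, with 2 and 5 bases left after the match. GOLGA8H, which ends earlier in GENCODE, was not among the matches. The ranking thus covers only copies whose GENCODE transcript holds such a sequence. Outside the GOLGA8 family, ITSN2 and GOLGA6L4 matched over 806 and 800 aligned bases, at 89.6% and 86.6%. GOLGA8B and GOLGA8A matched over 327 bases only, at 91.4% and 89.9%. Salmon divides reads among transcripts that resemble each other, so the locus from which the reads came cannot be told from these counts.

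TIMP1 (ENSG00000102265, chromosome X, 47582313 to 47586789, plus strand), a secreted inhibitor of matrix metalloproteinases, was also higher. It stood at 867 CPM in GOLGA8N 1, 916 in GOLGA8N 2 and 524 in 23-GOLGA8N, against 204 to 601 CPM (median 354) in the others. The pair of unprefixed libraries lay above all 14 others, whereas 23-GOLGA8N lay below 21-CTPS2 at 601 CPM. Over all libraries the log2 fold change was 1.11 ± 0.169 (SE; edgeR adjusted p = 0.00322), and the call was lost without GOLGA8N 1 (edgeR adjusted p = 0.0878) or GOLGA8N 2 (0.192). TIMP1 was also not called without Neg, GFP, RFP and E7 (edgeR adjusted p = 0.33) or by limma-voom (limma-voom adjusted p = 0.0971). TIMP1 lies within SYN1, a synaptic vesicle gene on the other strand. SYN1 had 4.16 CPM in GOLGA8N 1, 0 in GOLGA8N 2 and 0 in 23-GOLGA8N, far below TIMP1, and at most 2.49 CPM elsewhere. As the strand setting is unknown, reads of the pair cannot be assigned with certainty.

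PAEP (ENSG00000122133, chromosome 9, 135561756 to 135566955, plus strand) encodes glycodelin, a secreted lipocalin best known from the endometrium. Its level was 53.3 CPM in GOLGA8N 1, 76.4 in GOLGA8N 2 and 22.1 in 23-GOLGA8N, against 0.991 to 19.2 CPM (median 8.25) in the others. All 3 lay above the 14 others, although 23-GOLGA8N was close to 21-CTPS2, the highest of them. The log2 fold change was 2.65 ± 0.449 (SE; edgeR adjusted p = 0.00994). PAEP was not called without GFP (edgeR adjusted p = 0.0612), GOLGA8N 1 (0.0784) or GOLGA8N 2 (0.547), nor without Neg, GFP, RFP and E7 together (0.729). The transcripts that received the reads also differed: ENST00000479141 took 48.9% of the PAEP reads in the GOLGA8N libraries and 14.3% in the others, a description without a test.

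**Figure D2:**
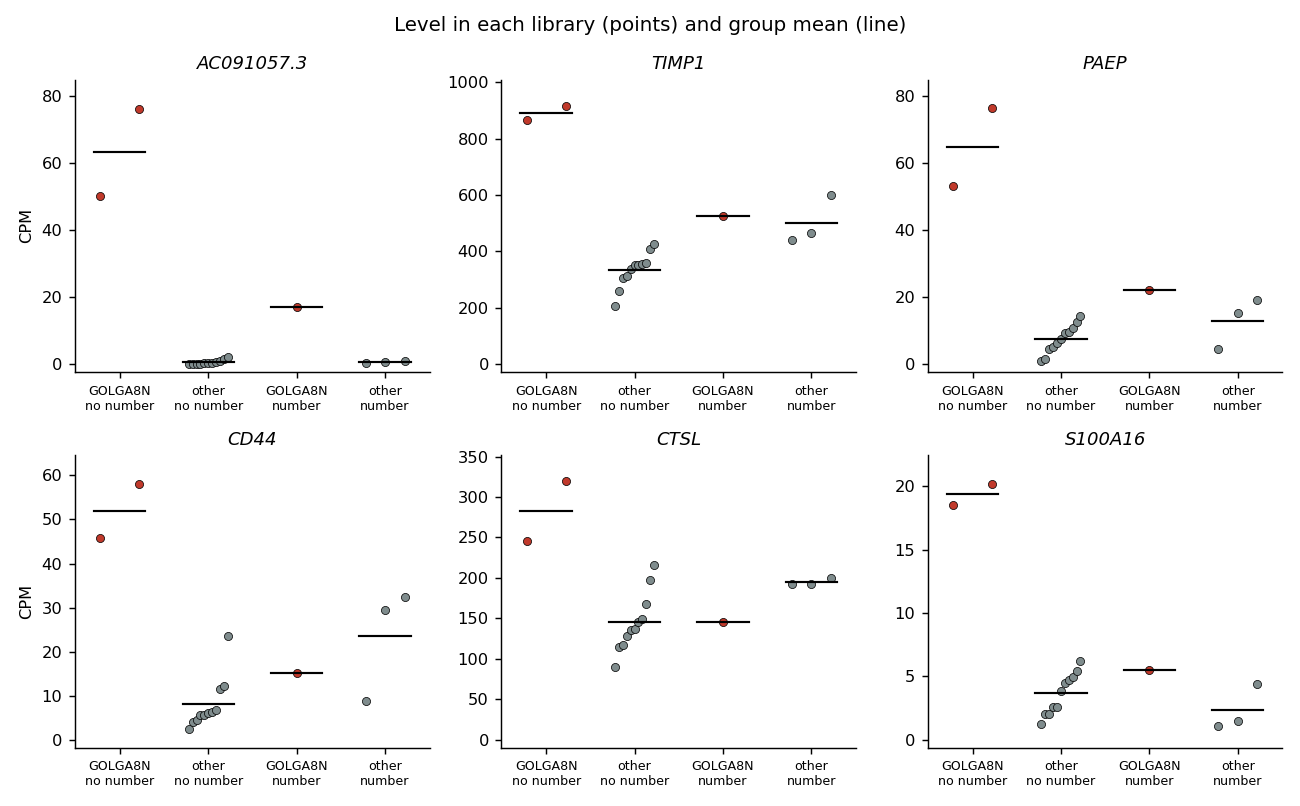
CPM of 6 genes in each library, with points for libraries and lines for group means, split by GOLGA8N or other label and by whether a number stands in front of the label. For TIMP1, CD44 and CTSL the pair GOLGA8N 1 and GOLGA8N 2 lies above the 11 unprefixed others while 23-GOLGA8N is inside the range of the 3 prefixed others or, for CTSL, below it.

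The only gene called lower was AC068768.1 (ENSG00000235423, chromosome 12, 123252030 to 123261483, minus strand), a noncoding RNA. It was at 9.56 CPM in GOLGA8N 1, 30.2 in GOLGA8N 2 and 6.05 in 23-GOLGA8N, and at 32.7 to 67.3 CPM (median 44.8) elsewhere. The groups did not overlap, and the log2 fold change was -1.63 ± 0.30 (SE; edgeR adjusted p = 0.0136). The call was lost without 23-GOLGA8N (edgeR adjusted p = 0.381), GOLGA8N 1 (0.47) or the 3 LAPTM4B libraries (0.12), and with limma-voom (limma-voom adjusted p = 0.185). Over the fits that left out 1 library, log2 ran from -2.53 to -1.28. The gene shares 513 exon bases (123260971 to 123261483) on the same strand with the 3′ end of CDK2AP1 (ENSG00000111328), which encodes a protein that binds the cell cycle kinase CDK2. CDK2AP1 differed in the opposite direction, at 62.2, 58.1 and 34.9 CPM in the same order, against 10.6 to 42.8 CPM (median 24.6) elsewhere. Its log2 difference was 1.04 ± 0.286 (SE) and was not called (edgeR adjusted p = 0.999). AC068768.1 made up 13.3%, 34.2% and 14.8% of the pair's level in the GOLGA8N libraries and 49.5% to 79.6% in the others. The sum of the pair was 71.8, 88.2 and 40.9 CPM in the GOLGA8N libraries, so 23-GOLGA8N held the lowest sum of all 17 and GOLGA8N 2 the second highest. Over groups it was 67.0 ± 24.0 CPM (SD, n = 3) and 74.0 ± 11.9 CPM (SD, n = 14), with an exact two-sided permutation p of 0.529. With both genes summed into 1 feature, an alternative added after seeing the data, the log2 difference was -0.10 ± 0.184 (SE; edgeR adjusted p = 0.999), and 3 genes were called in all. The groups were thus apart in how reads were divided between the overlapping annotations and overlapped in the total.

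**Figure D3:**
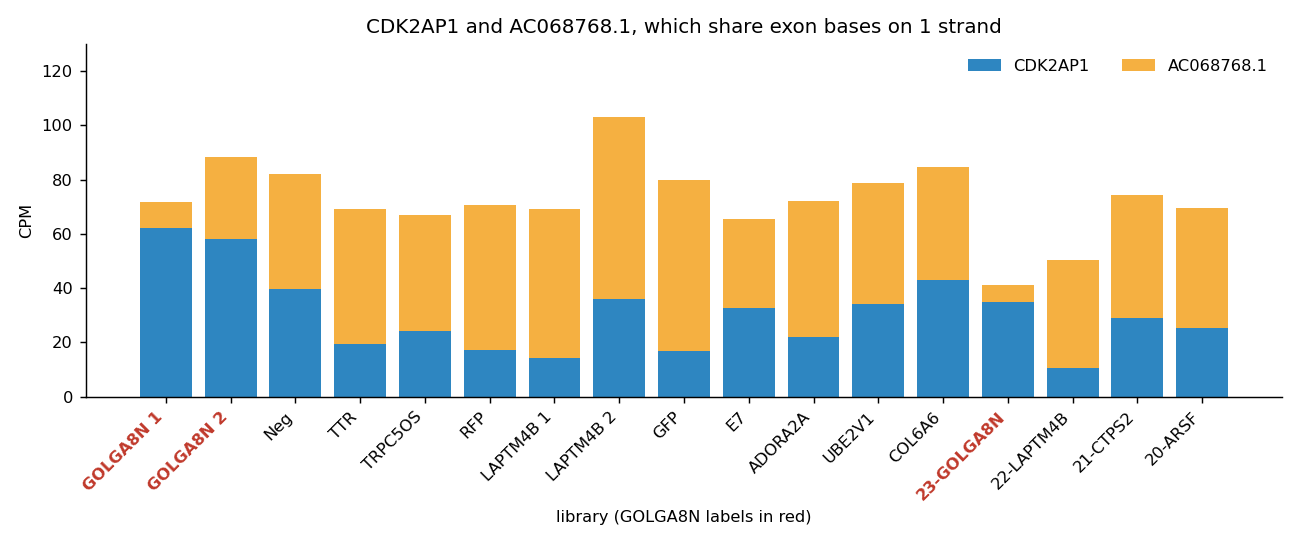
CPM of CDK2AP1 (blue) and AC068768.1 (orange) stacked in each of the 17 libraries, with GOLGA8N labels in red. The orange share is smallest in the 3 GOLGA8N libraries, at 13.3% to 34.2%, while the bar heights overlap those of the other libraries.

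The next question was whether the unprefixed and prefixed GOLGA8N libraries showed the same differences. Among unprefixed labels (2 against 11, with the spread taken from all 17 libraries) edgeR called 5 genes (0.0381%), all higher: AC091057.3, TIMP1, PAEP, CD44 and CTSL. Among prefixed labels, where 1 library stands against 3, it called 0 genes (0.0%), with 530 at an unadjusted p under 0.05. The difference between these effects was called for 0 genes (0.0%), with 660 at an unadjusted p under 0.05, and 1 library carries the prefixed side. These effects share no library. Their correlation across the 2485 genes at 50 CPM or more was -0.0565, and 48.8% of those genes had the same sign. Genes are not independent replicates, so this is a description.

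TIMP1 had a log2 fold change of 1.46 ± 0.150 (SE; edgeR adjusted p = 1.06e-07) among unprefixed labels and 0.07 ± 0.250 (SE) among prefixed ones. The unadjusted p of that difference was 7.9e-05, and its edgeR adjusted p was 0.528. CD44 encodes a receptor for hyaluronan at the cell surface. It stood at 45.7, 58.1 and 15.2 CPM in the GOLGA8N libraries, at 2.41 to 23.6 CPM in the unprefixed others and at 8.68, 29.4 and 32.5 CPM in 22-LAPTM4B, 21-CTPS2 and 20-ARSF. The pair of unprefixed libraries thus exceeded all others, while 23-GOLGA8N was inside the prefixed range. Its log2 fold change was 2.84 ± 0.433 (SE; edgeR adjusted p = 0.000463) among unprefixed labels and -0.62 ± 0.801 (SE) among prefixed ones. Over all libraries it was 2.19 ± 0.458 (SE) and missed the threshold (edgeR adjusted p = 0.115). CTSL, the lysosomal protease cathepsin L, behaved alike: 245, 320 and 145 CPM, against 89.9 to 216 CPM unprefixed and 192 to 200 CPM prefixed. It was called among unprefixed labels at log2 1.02 ± 0.179 (SE; edgeR adjusted p = 0.00502) and was at -0.42 ± 0.298 (SE) among prefixed ones.

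STC1, the secreted glycoprotein stanniocalcin, also stood apart between the classes. It was at 63.5 CPM in GOLGA8N 1 and 54.6 in GOLGA8N 2 but at 0.92 in 23-GOLGA8N, which is under the 3-read limit. The 11 unprefixed others were at 0 to 13.2 CPM and the prefixed others at 5.50 to 24.9 CPM. It was not called over all libraries (log2 3.08 ± 0.976, SE; edgeR adjusted p = 0.999). PAEP was at log2 3.17 ± 0.470 (SE) among unprefixed labels and at 0.79 ± 0.826 (SE) among prefixed ones, where the value is smaller than its error. AC091057.3 was at 7.09 ± 0.612 (SE) and 4.78 ± 1.05 (SE), the latter not called (edgeR adjusted p = 0.388). AC068768.1 was at -1.28 ± 0.328 (SE) and -2.84 ± 0.576 (SE), and was called in neither class in this fit.

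**Figure D4:**
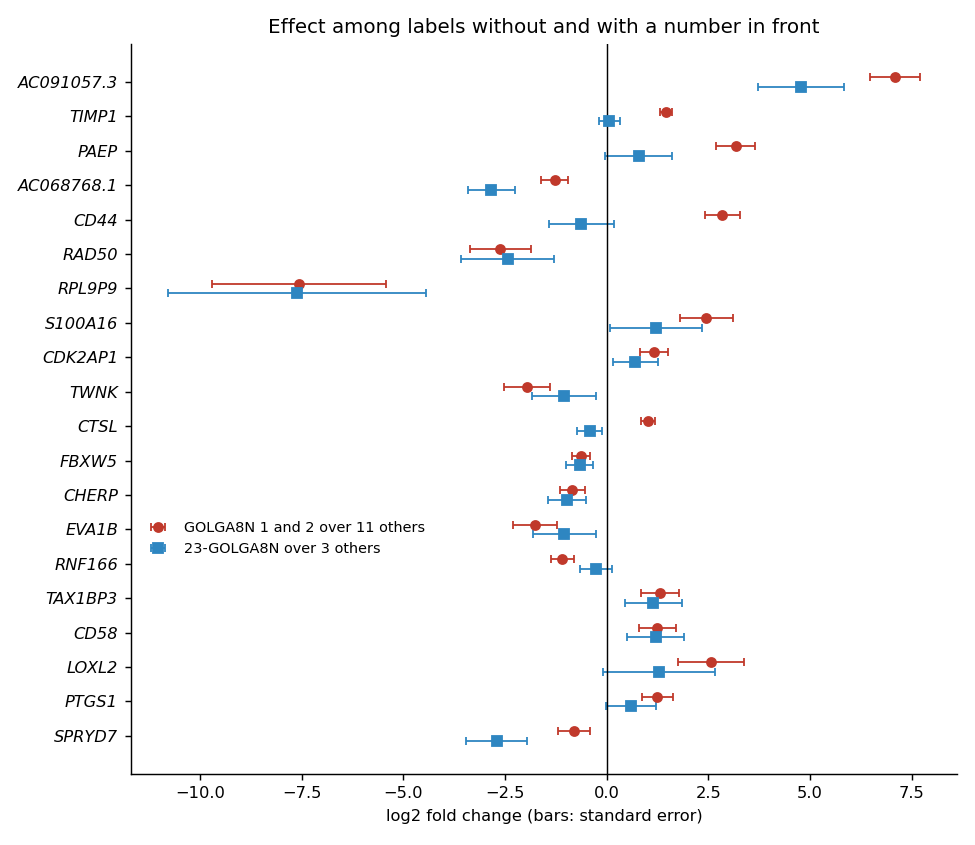
Log2 fold change with its standard error for the 20 genes with the lowest p, among unprefixed labels (red circles, GOLGA8N 1 and GOLGA8N 2 over 11 others) and prefixed labels (blue squares, 23-GOLGA8N over 3 others). CD44 and CTSL lie on opposite sides of 0 in the classes and TIMP1 is at 1.46 and 0.07; RPL9P9 had 0 reads in the GOLGA8N libraries, so its values are no bound.

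Of the 20 genes with the lowest p, 16 were not called over all libraries, CD44, CDK2AP1 and CTSL among them. Higher in the GOLGA8N libraries was S100A16, a calcium-binding protein, at 18.5, 20.2 and 5.52 CPM against 1.09 to 6.22 CPM (log2 2.14 ± 0.562, SE; edgeR adjusted p = 0.852). It was above all others in each prefix class, as was PTGS1, a cyclooxygenase of prostaglandin synthesis, at 23.4, 34.4 and 30.3 CPM against 5.22 to 20.5 CPM. LOXL2, an enzyme that crosslinks collagen, was at 19.7, 10.3 and 7.36 CPM against 0 to 5.87 CPM. CD58, the cell-surface ligand of CD2 on T cells, was at 18.5, 40.5 and 41.4 CPM against 0 to 21.2 CPM. TAX1BP3, a small PDZ protein, was at 19.2, 26.3 and 30.1 CPM against 4.89 to 20.8 CPM. Thus GOLGA8N 1 overlapped the others for the latter pair, and the other libraries did not.

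Among the genes that were lower but not called, RAD50, a subunit of the complex that detects DNA double-strand breaks, was at 4.91, 0.382 and 1.84 CPM against 6.80 to 48.4 CPM, with the highest value in GFP. Its log2 difference was -2.56 ± 0.612 (SE; edgeR adjusted p = 0.375). With genes that share exons on 1 strand summed, also added after seeing the data, the feature that holds RAD50 and AC116366.3 was at -0.45 ± 0.404 (SE). The difference of RAD50 thus also shrank once overlapping annotations were joined. Unlike for CDK2AP1, the partner's own level was not compared, so whether reads were divided differently between them was not tested. RPL9P9, a pseudogene of the ribosomal protein gene RPL9, had 0 reads in all 3 GOLGA8N libraries, and also in Neg and GFP, against up to 20.7 CPM elsewhere. Reads of such a copy can be exchanged with RPL9, which was at log2 -0.03 ± 0.103 (SE). TWNK, the mitochondrial DNA helicase, was at 2.64, 5.73 and 6.44 CPM against 8.71 to 28.7 CPM (log2 -1.65 ± 0.462, SE; edgeR adjusted p = 0.999). EVA1B was at 2.64, 6.11 and 5.06 CPM against 9.05 to 23.6 CPM, also without overlap. FBXW5, a substrate receptor of a ubiquitin ligase, was at log2 -0.64 ± 0.183 (SE), CHERP at -0.88 ± 0.255 (SE), RNF166, a ubiquitin ligase, at -0.81 ± 0.241 (SE), and SPRYD7 at -1.18 ± 0.365 (SE).

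Gene lists were then read for the routes an ASO takes and for the organelle that golgins serve. Each count stands beside all 13133 genes, of which 47.3% were higher in the GOLGA8N libraries, with a median log2 difference of -0.02. Of 22 tested golgins and Golgi scaffold genes outside the GOLGA8 family, 14 were higher, 8 were lower and 0 were called (median 0.09). GORASP2, which links Golgi stacks, had the lowest p among them at log2 -0.38 ± 0.20 (SE), and GOLIM4, a Golgi membrane protein that cycles through endosomes, was at 1.36 ± 0.763 (SE). Of 40 coat and cargo genes between the endoplasmic reticulum and the Golgi, 22 were higher and 0 were called (median 0.05). COPG2, a subunit of the COPI coat that returns vesicles to the endoplasmic reticulum, was at 125, 127 and 147 CPM against 46.1 to 117 CPM. It was above all 14 others yet missed the threshold (log2 0.55 ± 0.176, SE; edgeR adjusted p = 0.999).

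For Golgi-endosome retrieval, 14 of 35 tested genes were higher, 21 lower and 0 called (median -0.12). VPS26A, a retromer subunit, was at log2 -0.57 ± 0.240 (SE), and AP1B1, of the clathrin adaptor at the trans-Golgi, at -0.45 ± 0.196 (SE). Of 36 endocytosis genes, 13 were higher and 23 lower (median -0.10), and of 47 endosome and ESCRT genes 22 were higher and 25 lower (median -0.08). Neither list held a called gene. Of 61 lysosome genes, 32 were higher, CTSL among them, and 0 were called over all libraries (median 0.07). Of 41 tested genes for phosphorothioate oligonucleotide binders, 16 were higher and 25 lower (median -0.02). ILF2, a nuclear RNA-binding protein of that list, was at 157, 195 and 149 CPM against 191 to 292 CPM (log2 -0.41 ± 0.143, SE; edgeR adjusted p = 0.999). Only GOLGA8N 2 overlapped the others.

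TIMP1 stood in the lists for matrix proteases and their inhibitors and for TGF-beta response, and was the only called member of each. In the first, 13 of 17 tested genes were higher (median 0.15), and in the other 11 of 15 (median 0.15). The median among prefixed labels alone was -0.09 for the former and -0.01 for the latter, against -0.06 for all genes. In the TGF-beta list ID1, an inhibitor of differentiation factors, was at log2 -0.55 ± 0.199 (SE), and INHBA, an activin subunit, was at 10.2 and 3.82 CPM in GOLGA8N 1 and GOLGA8N 2 and at 0 in 23-GOLGA8N, against 0 to 3.91 CPM in the others. Of 54 adhesion and cytoskeleton genes 33 were higher and 0 called (median 0.03). S100A10, the partner of annexin A2, was at 31.7, 29.8 and 47.4 CPM against 8.03 to 38.1 CPM, and TAGLN2, an actin-binding protein, at log2 0.28 ± 0.117 (SE). PAEP was the only called gene of the 3 lipocalins tested.

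Stress and innate immune lists held no called gene. Of 21 interferon response genes 14 were higher (median 0.20 over all libraries, 0.10 unprefixed and -0.18 prefixed). Of 23 p53 and DNA damage genes 14 were higher (median 0.09), of 20 heat shock genes 10 (median 0.01), and of 32 genes of the unfolded protein and integrated stress responses 14 (median -0.03). In the last list ATF4, the transcription factor of the integrated stress response, was at 278, 332 and 454 CPM against 184 to 378 CPM (log2 0.41 ± 0.153, SE; edgeR adjusted p = 0.999). SHMT2, a mitochondrial serine enzyme that ATF4 is known to induce, was at -0.45 ± 0.175 (SE). These genes of 1 list thus lay on opposite sides of 0, and neither was called.

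Of 42 erythroid genes 26 were higher (median 0.10), but the median was -0.26 among prefixed labels. KLF1, the erythroid transcription factor, was at 124, 124 and 57.0 CPM in the GOLGA8N libraries. The unprefixed others were at 43.3 to 125 CPM, with the top value in GFP, and the prefixed others at 61.0 to 68.9 CPM. Of 15 mitochondrially encoded genes 12 were higher (median 0.12), and of 82 ribosomal protein genes 56 (median 0.03). Of 44 cell cycle genes 17 were higher (median -0.04), and of 35 genes of cholesterol and fatty acid synthesis 12 (median -0.09). SCAP, which escorts the sterol-sensing transcription factors from the endoplasmic reticulum to the Golgi, was below all 14 others, at 108, 102 and 108 CPM against 116 to 184 CPM. It was not called (log2 -0.44 ± 0.159, SE; edgeR adjusted p = 0.999). Of 41 sialidase and glycosylation genes 27 were higher (median 0.11), of 26 AP-1 and immediate early genes 16 (median 0.09), of 36 hypoxia and glycolysis genes, which include STC1, 17 (median -0.01), and of 27 cancer-testis antigens 12 (median -0.06). None of their members was called.

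**Figure D5:**
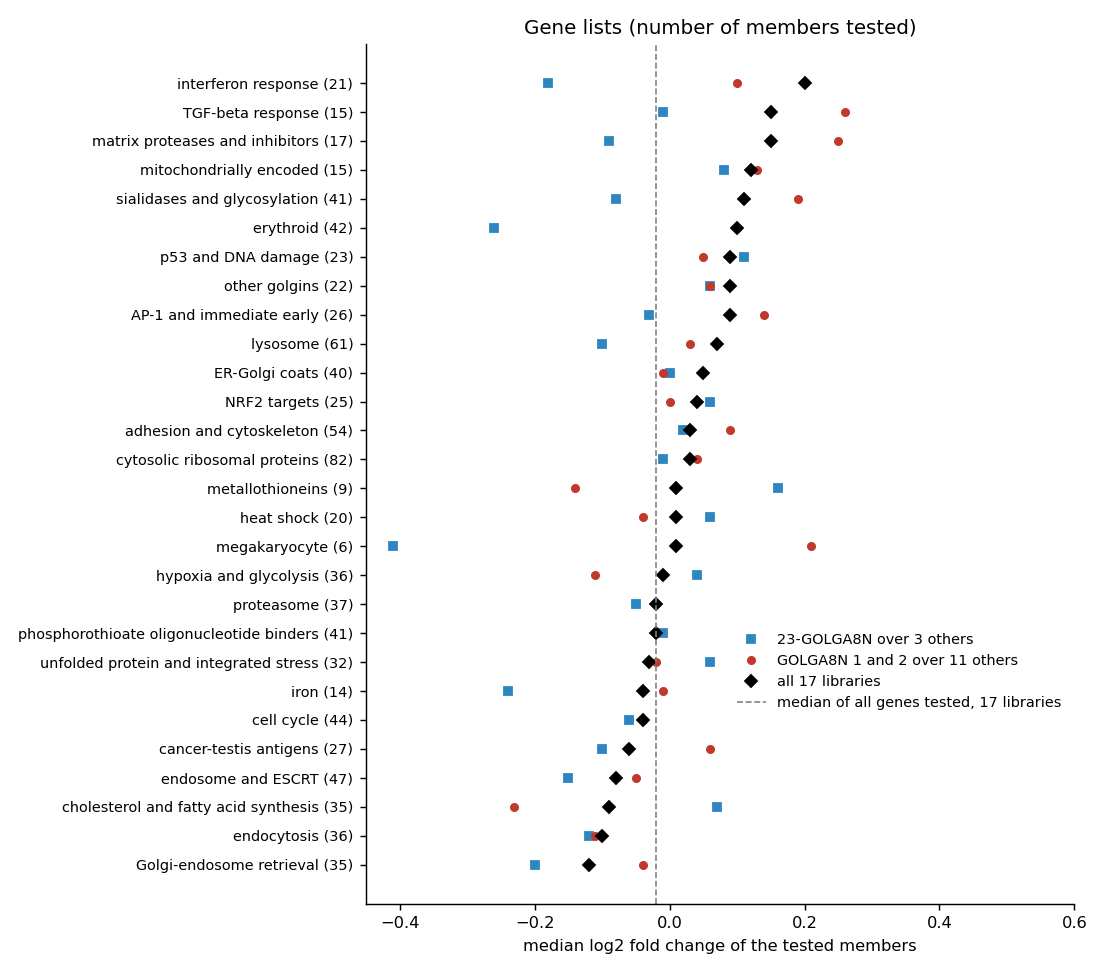
Median log2 fold change of the tested members of 28 gene lists with at least 5 of them, over all 17 libraries (black), unprefixed labels (red) and prefixed labels (blue); the dashed line is the median of all genes, -0.02. Most black points lie within 0.15 of 0. Red and blue points lie on opposite sides of 0 for the erythroid, interferon and matrix protease lists, and for many others. Among those are the megakaryocyte (0.21 and -0.41), cholesterol (-0.23 and 0.07) and metallothionein lists (-0.14 and 0.16), red before blue.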

How the data were processed

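RNA was measured in 17 K562 libraries made with the QuantSeq 3′ kit and oligo-dT primers that carry molecular identifiers, per the labels' protocols. The authors deposited 1 table per library with estimated counts of reads per transcript and TPM, in the layout that Salmon writes, per the file headers. Tools named in the submitters' processing notes are Salmon 0.7.2, STAR, featureCounts and UMI-tools, and the build is GRCh38. Whether reads were collapsed by molecular identifier, and the strand setting, are not given in the sources used here.

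Estimated counts of 228297 transcripts were matched to GENCODE 29 by Ensembl identifier (205336 matched), summed to 57638 genes and rounded. Unmatched transcripts, with 3.32% to 3.6% of reads, stayed out of library sizes and tests. Deposited TPM served as 1 alternative. edgeR 4.0.16 (TMM, filterByExpr, robust quasi-likelihood test, Benjamini-Hochberg over all genes) was fitted to all 17 libraries with the label prefix and the GOLGA8N label as terms. A second fit added their interaction. The standard error is the log2 fold change divided by the square root of F. Sums and shares were compared by exact permutation of the label within prefix classes. The fit was also run on simulated counts with known fold changes and no prefix effect, and no result here rests on that run. Alternatives used DESeq2 1.42.0, limma-voom (limma 3.58.1), other filters, size factors and library sets. blastn 2.17.0 aligned AC091057.3 to the GENCODE transcripts; promoters came from RefSeq, GRCh38.p14.

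The members and gene lists were chosen with earlier results of these data known. Named genes were the 20 with the lowest p, the genes named by labels, the tested GOLGA8 genes and, per list, up to 3 with the lowest p and others with p below 0.01.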

Additional observations from a re-analysis of the deposited data

Results flagged for a closer look

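Transcripts without a gene in the annotation used took no part in the comparisons, and 2 of them were far above the other libraries where a GOLGA8N plasmid was named. ENST00000611771 was at 141, 56.2 and 15.5 CPM in GOLGA8N 1, GOLGA8N 2 and 23-GOLGA8N, a mean of 70.9 CPM, and at most 0.881 CPM in the 14 others. ENST00000632353 had a mean of 47.9 CPM in the GOLGA8N libraries and at most 2.01 CPM in the others. Once rounded, it had the same count as AC091057.3 in 17 of 17 libraries, whereas ENST00000611771 did in 5 of 17. With unmatched transcripts kept as features, edgeR called both, at log2 7.28 ± 0.461 (SE) and 6.54 ± 0.550 (SE), among 6 calls. Their sequences and positions were not used here.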

How the results depend on the processing

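All 4 genes called over 17 libraries were among the 7 called with DESeq2 and the 9 with no filter on low counts (26798 genes tested in both). With prefixed labels only, 1 library against 3, edgeR called 8 genes, of which AC068768.1 was 1 of the 4. AC091057.3 (edgeR adjusted p = 0.261), TIMP1 (0.978) and PAEP (0.928) were not called there. The count of 4 over 17 libraries became 2 to 5 when each library was left out in turn. It was 2 without GOLGA8N 1 (GOLGA8N replicate 1) and 2 without GOLGA8N 2. limma-voom called 3 genes, PAEP, S100A16 and AC091057.3. Without Neg, GFP, RFP and E7, edgeR called AC068768.1, RPL9P9 and AC091057.3. CD44 was called without 23-GOLGA8N (0.00021) or 20-ARSF (0.039). The interaction count of 0 became 8 with no filter, with TIMP1 and STC1 among the 8. This count ran from 0 to 1 over the fits that left out 1 library, the 1 being without TTR.

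Titles 1 and 2 of GOLGA8N and LAPTM4B share numbers. With only 2 pairs, whether the numbers pair the samples cannot be told (correlation of deviations 0.11 over 13133 genes). A fit of these 4 libraries called 2 genes with the replicate block and 2 without it, AC091057.3 and TIMP1.

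Some values reversed. With prefixed labels only, log2 was -0.61 for CD44, -0.41 for CTSL, -0.20 for KLF1, -3.72 for STC1, -5.20 for INHBA and 0.13 for ID1. CDK2AP1 was at -0.10 with shared exons summed. GOLGA8B was at 0.00 with the block and 0.05 without it. The GOLGA8 family difference, which leaves out AC091057.3, was -0.24 in deposited TPM, against 5.04 in CPM. The ribosomal share difference ran from -0.0201 (without GOLGA8N 1) to 0.528 percentage points (without GOLGA8N 2). That of the sum of CDK2AP1 and AC068768.1 ran from -14.3 (without GOLGA8N 2) to 3.46 CPM (without 23-GOLGA8N). The cause of these reversals was not tested. Of the GOLGA8 genes, only GOLGA8A, GOLGA8B and GOLGA8R passed the filter, and GOLGA8N itself could not be compared. Whether depth or the division of reads among similar copies kept the counts low was not tested.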
